A study of Mus musculus with 4 samples.

Results

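T cells with only a beta chain of the T cell receptor (beta-only cells) were 141 of the 677 cells with a beta chain, and of 800 cells with any receptor chain, in tumours of the mouse colon carcinoma line MC38. Members were chosen by the chains reported for each barcode: 1 or more productive TRB contigs (assembled beta chains) and no TRA contig (alpha chain). The WT library held 49 beta-only cells and the p53 KO library 92. Cells with both chains, called paired cells, numbered 277 and 259 and served for comparison. Just outside the rule were paired cells whose top alpha contig rested on 1 UMI, a tag of a single RNA molecule: 26 in WT and 35 in p53 KO. The missing alpha chain is thus what defines the cells and is not a finding.

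The WT library came from whole tumours of unedited MC38 cells and the p53 KO library from whole tumours of MC38 cells in which p53 had been knocked out with CRISPR-Cas9. All hosts were C57BL/6J mice, and both groups received anti-PD-1, an antibody against an inhibitory receptor of T cells, so there was no untreated group. How many mice were used, their age, and whether the knockout line was 1 clone is not stated in the labels. The receptor libraries accompanied 5' gene expression libraries on the 10x Chromium platform, where a barcode marks the cell and a unique molecular identifier (UMI) the RNA molecule; only the receptor libraries were analysed here. With 1 library per genotype no difference has a replicate check, no test was made, and tumour genotype and library cannot be told apart.

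Most T cells carry a receptor of 1 alpha and 1 beta chain that together bind a peptide on an MHC molecule. The beta chain is joined from V, D and J segments early in thymic development and reaches the surface with a surrogate alpha chain before the alpha locus is joined from V and J segments. The CDR3, which spans the joint, differs between T cell clones, so its nucleotide sequence can serve as a tag for the descendants of 1 cell. The files analysed here hold only receptor chains, so the TRB contig itself was the one marker of cell identity that could be checked in them. A beta-only cell is therefore a cell in which no alpha contig was reported. Whether such a cell lacked alpha RNA or its alpha RNA was not recovered cannot be told apart.

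Of the beta chains found in beta-only cells, 1 in each library recurred in 3 or more such cells. Their CDR3 nucleotide sequences are shown first because a large part of the results turns on them. They are given 5′ to 3′ from the deposited contigs. Lower case at the start marks bases shared with at least 3 other CDR3s of the same V gene in these libraries, and lower case at the end bases shared with at least 3 others of the same J gene; capitals mark the bases between. After each leading chain stands the sequence it is compared with.
WT TRBV1-TRBJ1-1 chain, 4 of 7 cells beta-only: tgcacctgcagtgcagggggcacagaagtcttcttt
WT chain with the same beta amino acids, 0 of 1 cell beta-only: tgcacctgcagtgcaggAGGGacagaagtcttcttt
p53 KO TRBV19-TRBJ2-1 chain, 14 of 31 cells beta-only: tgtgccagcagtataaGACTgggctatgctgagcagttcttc
p53 KO TRBV1-TRBJ2-2 chain, 2 of 30 cells beta-only: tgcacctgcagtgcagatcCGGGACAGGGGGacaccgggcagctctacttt

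The next 3 sequences are those of a p53 KO chain found only in beta-only cells, and of the beta-only cell with most UMIs in each library.
p53 KO TRBV31-TRBJ1-2 chain, 2 of 2 cells beta-only: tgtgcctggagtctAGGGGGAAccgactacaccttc
WT TRBV12-2+TRBV13-2 and TRBJ2-7 chain, 1 of 1 cell beta-only: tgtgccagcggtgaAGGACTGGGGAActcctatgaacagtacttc
p53 KO TRBV1-TRBJ2-7 chain, 1 of 2 cells beta-only: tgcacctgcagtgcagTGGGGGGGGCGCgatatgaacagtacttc

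The share of beta chain cells that lacked an alpha chain was 15.0% in WT (49 of 326, exact 95% interval 11.3 to 19.4) and 26.2% among the p53 KO cells (92 of 351, 21.7 to 31.1). These intervals do not overlap. All intervals of shares are of this kind (Clopper-Pearson) and reflect counting error alone. The opposite order held for the other chain. Cells with an alpha chain lacked a beta chain in 22.8% of cases in WT (82 of 359, 18.6 to 27.5) and in 13.7% in p53 KO (41 of 300, 9.99 to 18.1). Cells with 1 kind of chain only, alpha or beta, were thus a like part of both libraries, at 32.1% of 408 WT cells (27.6 to 36.9) and 33.9% of 392 p53 KO cells (29.3 to 38.9). No barcode occurred in both libraries (0 shared).

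The missing alpha chain was set beside the depth of the beta chain. WT beta-only cells had a median of 5 beta UMIs (range 2 to 18), and p53 KO ones 5 (range 2 to 25). For the main beta contig of paired cells the medians were 4 UMIs (range 1 to 33) and 6 (range 1 to 31). The ranges overlap, with paired cells reaching higher in both libraries. The median of beta-only cells was 1 UMI above that of paired cells in WT and 1 UMI below it in p53 KO, where both medians were 5 without chains of 10 or more cells. At the lower end the files listed no single-contig cell below 2 UMIs: of the 131 WT and 133 p53 KO cells with a single contig, 0 had a contig of 1 UMI, while 55 of 602 and 53 of 576 other contigs did. Every beta-only cell had 1 TRB contig (0 with more), whereas 14 WT and 22 p53 KO paired cells had several.

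Beta chains of 3 or more UMIs were found in 89.8% of WT beta-only cells (44 of 49, 77.8 to 96.6) and 74.7% of paired cells (207 of 277, 69.2 to 79.7). In p53 KO the shares were 94.6% (87 of 92, 87.8 to 98.2) and 83.0% (215 of 259, 77.9 to 87.4). No beta-only cell was listed with 1 UMI, and among cells of 2 or more beta UMIs the paired shares were 82.5% in WT and 86.7% in p53 KO, and the WT difference was 7.33 in place of 15.1 percentage points. The middle range of 3 to 5 UMIs was where beta-only cells gathered. It held 61.2% of WT beta-only cells (30 of 49, 46.2 to 74.8) against 35.7% of paired cells (99 of 277, 30.1 to 41.7). Its p53 KO shares were 47.8% (44 of 92, 37.3 to 58.5) against 29.3% (76 of 259, 23.9 to 35.3). The intervals lie apart in both libraries.

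The share was also taken by class of beta UMIs. In WT the share without an alpha chain was highest at 4 to 5 beta UMIs (20 of 79, 25.3%, 16.2 to 36.4) and was 5.26% at 13 or more (2 of 38, 0.644 to 17.7). In p53 KO it was also highest at 4 to 5 UMIs (33 of 86, 38.4%, 28.1 to 49.5), and was 32.1% at 9 to 12 UMIs (18 of 56, 20.3 to 46.0) and 22.4% at 13 or more (11 of 49, 11.8 to 36.6). At 6 to 8 UMIs the libraries were alike, at 19.2% in WT (10 of 52) and 18.2% in p53 KO (14 of 77). In p53 KO, 29 of the 92 beta-only cells had 9 or more beta UMIs (31.5%, 22.2 to 42.0), close to the 29.3% of paired cells (76 of 259, 23.9 to 35.3). In WT 4 of 49 did (8.16%, 2.27 to 19.6), below the 23.8% of paired cells (66 of 277, 18.9 to 29.3), with a slight overlap of the intervals. The leading TRBV19 chain held 9 of the 29 p53 KO cells; without it the p53 KO share was 25.6% (20 of 78, 16.4 to 36.8), and its interval overlaps the WT one.

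**Figure D1:**
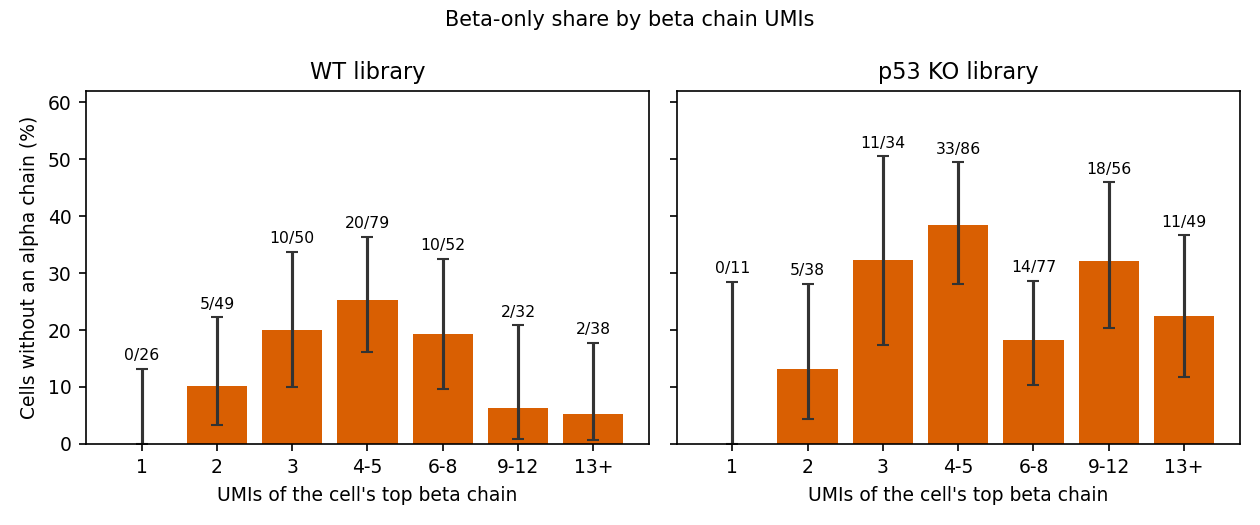
Share of cells with a beta chain that had no alpha chain (percent, vertical axis) by the UMIs of the cell's top beta contig (horizontal axis), in the WT and the p53 KO library; error bars are exact 95% binomial intervals and the counts stand above them. The share peaks at 4 to 5 UMIs in both libraries, at 25.3% and 38.4%, and at 13 or more UMIs it is 5.26% in WT and 22.4% in p53 KO.

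Each beta contig of a beta-only cell rested on many reads. A WT beta-only contig had a median of 20318 reads (lowest 5274, highest 74738) and a p53 KO one 46846 (lowest 12256, highest 79084). Paired cells had medians of 18452 and 31352 reads on the beta contig. Per UMI, the medians were 4954 reads in beta-only against 4034 in paired cells in WT, and 7578 against 5071 in p53 KO, so the beta-only median was higher in both libraries. Order-statistic 95% intervals of these medians overlap in WT (3741 to 5231 and 3797 to 4365) and lie apart in p53 KO (6401 to 8278 and 4387 to 5788). Among cells of 3 to 5 beta UMIs the p53 KO medians were 8806 and 7388, with overlapping intervals (7902 to 9927 and 6387 to 8735). The median of reads in all was lower in beta-only cells, each with 1 contig: paired cells had medians of 43132 and 57056 reads over all their contigs. The highest total of any such cell was 78096 reads for WT and 79324 for p53 KO, and the part of a cell's total reads in the reads per UMI was not tested. The assembled contigs were of like length, with medians of 562 bases in both kinds of WT cell and of 568.5 against 562 in p53 KO.

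Whether a beta-only cell belonged to a clone with a known alpha chain was read from its CDR3 nucleotides. In WT, 23 of 49 beta-only cells (46.9%, 32.5 to 61.7) carried a beta CDR3 that was also found in a cell with an alpha chain, and in p53 KO 34 of 92 (37.0%, 27.1 to 47.7). These cells held 17 of the 43 different beta CDR3s of WT beta-only cells and 19 of the 76 in p53 KO. As a yardstick, 42.6% of WT paired cells (118 of 277, 36.7 to 48.7) and 52.1% of p53 KO paired cells (135 of 259, 45.9 to 58.3) carried a beta CDR3 found in a further paired cell. In p53 KO 1 chain supplied 14 of the 34 cells, and without it the share was 25.6% (20 of 78, 16.4 to 36.8); without the leading WT chain it was 42.2% (19 of 45, 27.7 to 57.8). The yardstick above still holds these chains. A related share, of p53 KO cells with a beta CDR3 in 2 or more cells, can be set side by side. Without the leading chain it was 28.2% of beta-only and 50.8% of paired cells. Without chains of 10 or more cells it was 26.3% and 41.4%.

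The remaining 26 WT and 58 p53 KO beta-only cells carried a beta chain never seen with an alpha chain. All 26 in WT were the single cell of their chain, and so were 56 in p53 KO. The other two p53 KO cells shared the TRBV31-TRBJ1-2 chain printed above (CDR3 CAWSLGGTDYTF), with 5 UMIs in each; it lies outside the rule for named chains and was picked with its values known. The beta depths of these cells and of the ones with a known alpha overlapped in range. Beta chains never seen with an alpha had medians of 4 UMIs (2 to 18) in WT and 5 (2 to 24) in p53 KO. Those seen with one had medians of 5 (2 to 14) and 5.5 (2 to 25).

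By size of the beta clone, the intervals of the 2 libraries lay apart only among chains found once. Of cells whose beta CDR3 occurred in no other cell, 32.0% lacked an alpha chain in p53 KO (56 of 175, 25.2 to 39.5) and 14.5% in WT (26 of 179, 9.71 to 20.6), with intervals that lie apart. Among chains of 2 cells the shares were 21.7% (10 of 46, 10.9 to 36.4) and 12.5% (7 of 56, 5.18 to 24.1). Among chains of 3 or more cells they were 20% (26 of 130, 13.5 to 27.9) and 17.6% (16 of 91, 10.4 to 27.0), and without the leading beta-only chain of each library 12.1% (12 of 99, 6.42 to 20.2) and 14.3% (12 of 84, 7.61 to 23.6). From 2 cells upward the intervals of the libraries overlap, although among chains of 2 cells, with few cells, the p53 KO share was also the higher. Within p53 KO, the interval for chains found once lies above that for chains of 3 or more cells only when the leading chain is left out. The leading chain is the one with most beta-only cells, so it was picked by the value compared. The separation without it therefore carries little weight.

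**Figure D2:**
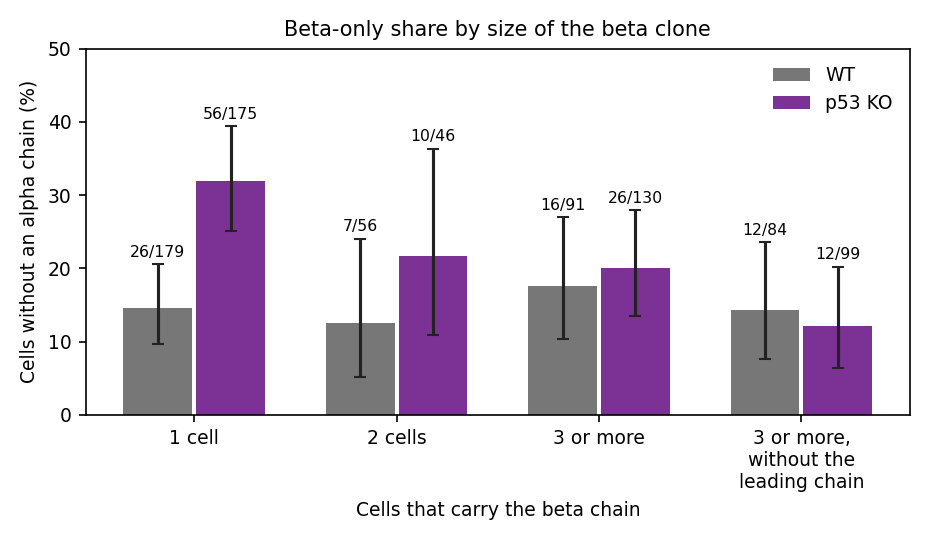
Share of cells without an alpha chain (percent, vertical axis) by the number of cells that carry the same beta CDR3 nucleotides (horizontal axis), in WT (grey) and p53 KO (purple); error bars are exact 95% binomial intervals and the counts stand above them. Among chains found in 1 cell the share is 14.5% in WT and 32.0% in p53 KO, in chains of 3 or more cells 17.6% and 20%, and in these without the leading chain 14.3% and 12.1%.

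Reads per molecule were also compared within chains found once. In p53 KO, beta-only cells of such chains had a median of 7991.5 reads per beta UMI against 6387 in paired cells, with median beta UMIs of 5 in both. In WT these medians were 4255 and 4368 reads per UMI, with 4 UMIs in both. The 2 kinds of p53 KO cell had the same median of UMIs, and their intervals for reads per UMI, 6646 to 8767 and 5467 to 7014, overlap.

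Beta-only cells were found in some of the larger clones and not in others. Of the beta chains found in 3 or more cells, 10 of 22 in WT and 11 of 19 in p53 KO had at least 1 beta-only cell, and in the remaining 12 and 8 every cell was paired. Chains with 1 or 2 beta-only cells numbered 9 in WT and 10 in p53 KO, and 1 chain in each library had more. The p53 KO TRBV19-TRBJ2-1 chain (CDR3 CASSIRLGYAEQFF) had 14 among 31 cells, and the WT TRBV1-TRBJ1-1 chain (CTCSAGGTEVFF) 4 among 7. The p53 KO TRBV1-TRBJ2-2 chain, of nearly the same size as the TRBV19 one, had 2 among 30, and a TRBV5-TRBJ2-1 chain had 0 among 11. In the clones named here, some of them picked with their values known, the number of beta-only cells did not follow the size of the clone. Whether this holds over all chains was not tested.

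**Figure D3:**
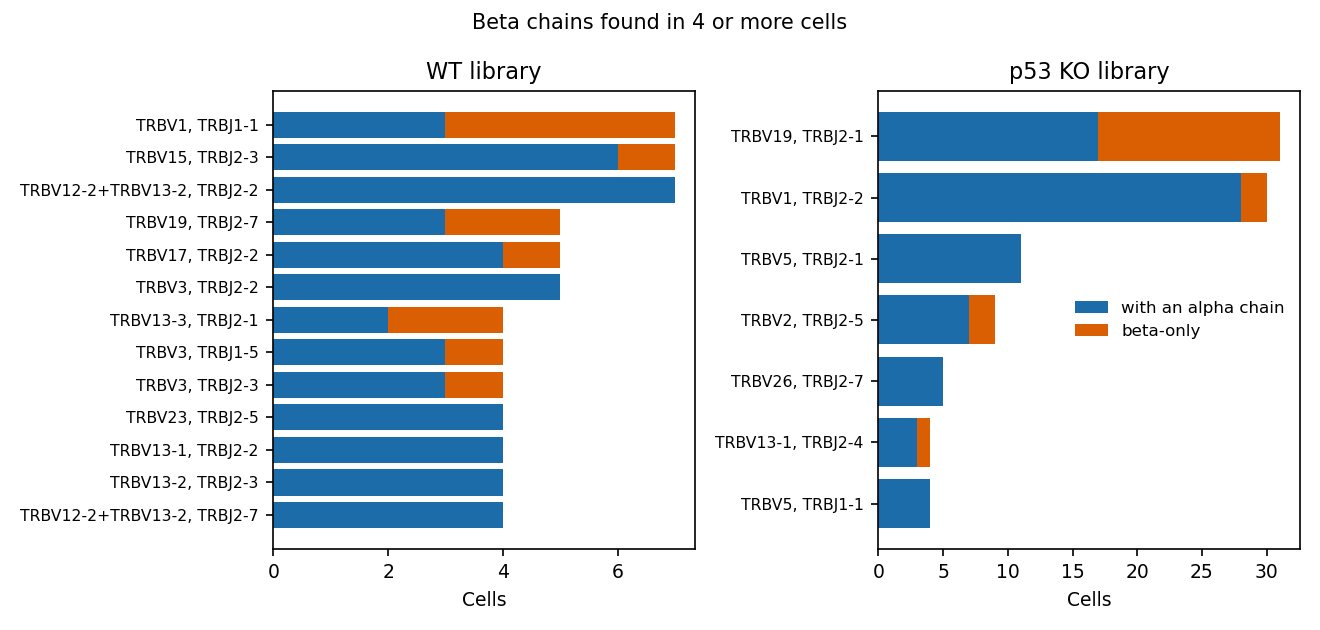
Cells (horizontal axis) of each beta CDR3 found in 4 or more cells, by V and J gene (vertical axis), in the WT and the p53 KO library; blue are cells with an alpha chain and orange are beta-only cells. The 2 largest p53 KO chains have 31 and 30 cells, of which 14 and 2 are beta-only.

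The 14 beta-only cells of the p53 KO TRBV19 chain held 18, 14, 14, 11, 11, 11, 9, 9, 9, 8, 6, 5, 3 and 2 beta UMIs. Their median of 9 was above the library's beta-only median of 5 and near the 8 of the chain's 17 paired cells. Beta UMIs do not measure how well alpha RNA was recovered, and why the alpha chain was missing was not tested. In 16 of the paired cells the alpha chain was TRAV7-6 joined to TRAJ43 (CDR3 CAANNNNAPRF), and in 1 it was TRAV10N joined to TRAJ17 (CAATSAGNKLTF). The alpha contig itself was thin in many of them: it had 1 UMI in 8 of 17 cells (47.1%, 23.0 to 72.2), against 27 of 242 other paired p53 KO cells (11.2%, 7.48 to 15.8). The 2 intervals lie apart, but this carries little weight. The chain was named for its many cells without an alpha contig. Its 17 paired cells share 1 beta chain and are not independent draws. The contrast was not tested. The median alpha depth of this clone was 2 UMIs (1 to 13).

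The TRBV1-TRBJ2-2 chain, picked for comparison because of its like size and with its values known, had more alpha UMIs. Its alpha chain, TRAV7D-3 joined to TRAJ37 (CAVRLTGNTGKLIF), had a median of 7 UMIs (1 to 22) over 28 paired cells, and 1 UMI in 3 of them. Its beta chain had a median of 8 UMIs in these cells, the same as in the paired cells of the TRBV19 chain. The 2 beta-only cells of the chain held 5 and 2 beta UMIs. Over all chains of 3 or more cells, the alpha depths of those with beta-only cells and of those without overlapped in range. The median alpha UMIs of a chain's paired cells ranged from 3 to 13 in the 10 WT chains with a beta-only cell and from 2 to 19 in the 12 without, and from 1.5 to 7 in the 11 p53 KO chains with one and from 3 to 6 in the 8 without. The medians over these chains were 4.5 and 6.5 UMIs in WT and 3.5 and 5 in p53 KO. In both libraries the value was thus lower for chains with a beta-only cell, which was not tested.

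**Figure D4:**
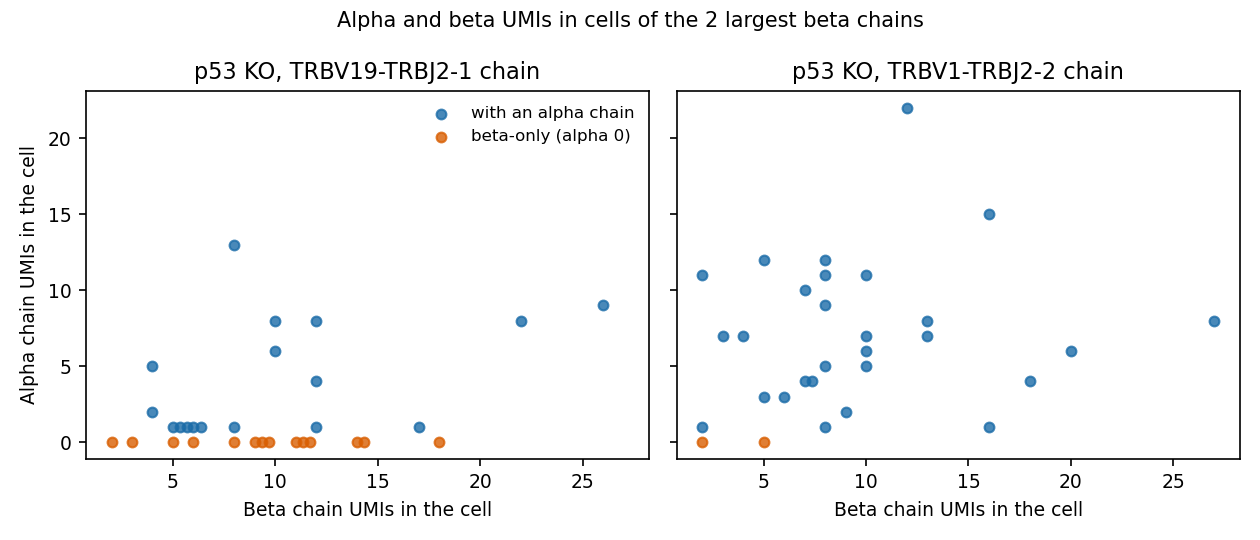
Alpha chain UMIs (vertical axis) against beta chain UMIs (horizontal axis) in every cell of the 2 largest p53 KO beta chains; blue are paired cells, orange are beta-only cells drawn at 0, and cells with equal values are shifted slightly to the right. In the TRBV19-TRBJ2-1 chain 14 cells lie at 0 and 8 at 1 alpha UMI, and in the TRBV1-TRBJ2-2 chain 2 lie at 0 and 3 at 1.

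The 4 beta-only cells of the WT TRBV1-TRBJ1-1 chain held 14, 8, 4 and 4 beta UMIs, and its 3 paired cells 8, 4 and 2. The ranges overlap. The alpha chain of the paired cells, TRAV9-4 joined to TRAJ37, had 4, 2 and 4 UMIs. A further WT cell had the same 12 beta amino acids written by other nucleotides: counted from 1 at the 5′ end of the CDR3, and with the base of the leading chain first, the sequences differ by G18A and C21G. That cell was paired, with 20 beta and 7 alpha UMIs. Its alpha chain joined the same 2 segments, TRAV9-4 and TRAJ37, in a CDR3 of another length (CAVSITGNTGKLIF, 14 residues, against 15).

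A similar likeness was seen in 2 smaller WT chains, outside the rule for named chains and picked with their values known. Both joined TRBV13-3 to TRBJ2-1 in a CDR3 of 13 residues, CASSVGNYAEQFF with 2 beta-only cells among 4 and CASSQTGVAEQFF with 1 among 3. They are given because the alpha chains of their paired cells were alike in amino acids and not in nucleotides.
WT TRBV13-3 chain with 2 of 4 cells beta-only: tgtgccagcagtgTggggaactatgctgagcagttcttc
WT TRBV13-3 chain with 1 of 3 cells beta-only: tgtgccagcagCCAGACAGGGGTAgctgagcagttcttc
Alpha CDR3 of the first chain's paired cells: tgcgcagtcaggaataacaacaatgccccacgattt
Alpha CDR3 of the second chain's paired cells: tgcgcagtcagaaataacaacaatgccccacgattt
Both alpha chains joined TRAV3-3 to TRAJ43 with the CDR3 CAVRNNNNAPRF, and they differ by G12A, counted from the 5′ end of the alpha CDR3 with the first chain's base first. The 2 beta CDR3s differ at 12 of 39 bases. The beta-only cells of these chains held 6 and 6 beta UMIs in the first and 5 in the second, and make up all 3 TRBV13-3 beta-only cells of WT.

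Of the 17 WT beta chains seen both with and without an alpha chain, 15 were found with 1 top alpha chain and 2 with 2. In p53 KO 13 had 1 and 6 had 2. A beta chain with 1 paired cell can show only 1 top alpha chain, and many of these chains had only 1. The counts therefore do not show how often the partner of a beta chain is ambiguous. The other direction was read from the alpha chains. Of the alpha chains found with these betas, 2 of 19 in WT and 7 of 23 in p53 KO were also paired with another beta chain. TRAV6-6 joined to TRAJ18 was found with 4 different betas and in 11 further cells without a beta, and TRAV3-3 joined to TRAJ39 with 4 betas and in 7 cells without one. Each of these 2 alphas links to 2 beta-only cells, among them the p53 KO cell with most beta UMIs, so for these 4 cells the alpha chain was not particular to 1 beta chain.

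Invariant natural killer T cells, which see lipids on CD1d, carry TRAV11 joined to TRAJ18. A p53 KO beta-only cell with 13 beta UMIs had a TRBV17-TRBJ2-7 chain (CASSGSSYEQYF) also found in 2 paired cells. Their top alpha contigs differed, 1 of them TRAV11 with TRAJ18 and 1 TRAV12D-3 with TRAJ31. Only the top alpha contig of each cell was compared. All 3 cells carry the same deposited clonotype number, so the 2 alphas need not belong to different clones. In WT, 0 of the beta chains of beta-only cells were found with that invariant alpha chain.

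The deposited clonotype numbers treated these cells in different ways. Beta-only cells whose beta was found with 1 alpha chain mostly carried the clonotype number of the paired cells, in 20 of 21 cells in WT and 14 of 15 in p53 KO. Where the beta was found with 2 alpha chains, 0 of 2 cells in WT and 2 of 19 in p53 KO did. The 14 beta-only cells of the p53 KO TRBV19 chain stand under a number of their own, apart from the 16 cells with the TRAV7-6 chain. A clone size counted from clonotype numbers would therefore give 16 for a beta chain found in 31 cells.

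Use of TRBV genes was compared next; all lie on chromosome 6, and positions are those of RefSeq for GRCm38.p6, the assembly of the mm10 build. Beta-only cells used 18 of the 22 TRBV gene names in WT and 19 in p53 KO, and paired cells used all 22 in each. Of 14 TRBV genes found in 20 or more cells with a beta chain, 3 had a beta-only share at least 1.5 times the paired share in both libraries (21.4%), and 4 had one lower by that factor in both (28.6%). In WT alone 6 were higher (42.9%) and 7 lower (50%), and in p53 KO 5 were higher and 5 lower (35.7% each). So many genes pass this ratio in a single library that passing it carries little weight, and the counts of cells behind each gene are small.

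TRBV19 (41178589 to 41179048) was the gene of most beta-only cells when the libraries are pooled, although TRBV1 and TRBV3 were ahead of it in WT. It was in 4 of 49 WT cells (8.16%, 2.27 to 19.6) against 15 of 277 paired cells (5.42%, 3.06 to 8.77). In p53 KO it was in 17 of 92 beta-only cells (18.5%, 11.1 to 27.9) against 27 of 259 paired cells (10.4%, 6.98 to 14.8). The p53 KO value came from 1 clone: without the leading chain it was 3 of 78 (3.85%) against 10 of 242 (4.13%). TRBV1 (40891296 to 40891885) was in 9 of 49 WT beta-only cells (18.4%, 8.76 to 32.0) against 28 paired cells (10.1%, 6.82 to 14.3), and without the leading chain in 5 of 45 (11.1%) against 25 of 274 (9.12%). In p53 KO it went the other way, with 7 of 92 (7.61%, 3.11 to 15.1) against 38 of 259 (14.7%, 10.6 to 19.6), of which 28 paired cells were the TRBV1-TRBJ2-2 clone. Both genes thus followed the largest clones.

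The next genes by number of beta-only cells were not led by a single clone. TRBV3 (41048394 to 41048824) was in 7 WT beta-only cells (14.3%, 5.94 to 27.2) against 41 paired (14.8%, 10.8 to 19.5), and in 8 in p53 KO (8.70%, 3.83 to 16.4) against 12 (4.63%, 2.42 to 7.95). TRBV13-1 (41116036 to 41116468) was in 1 WT beta-only cell (2.04%, 0.0517 to 10.9) against 27 paired (9.75%, 6.52 to 13.9), and in 10 in p53 KO (10.9%, 5.34 to 19.1) against 15 (5.79%, 3.28 to 9.37). The 10 p53 KO cells had 10 different CDR3s, so this count did not rest on a clone. TRBV12-2 (41118864 to 41119364) was in 4 (8.16%, 2.27 to 19.6) against 8 (2.89%, 1.25 to 5.61) in WT and in 6 (6.52%, 2.43 to 13.7) against 12 (4.63%, 2.42 to 7.95) in p53 KO. Contigs with the joint name TRBV12-2+TRBV13-2 were counted apart and went the other way from TRBV12-2 in both libraries. They were in 3 WT beta-only cells (6.12%) against 39 paired (14.1%), and in 6 in p53 KO (6.52%) against 21 (8.11%). The joint-name chain printed above begins with CASG, as does a WT TRBV13-2 chain of 4 paired cells. The CDR3s of the 4 WT TRBV12-2 beta-only cells begin with CASS. TRBV13-2 alone, added with its values known, was in 0 WT beta-only cells against 7 paired, and in 0 in p53 KO against 5. To which gene the joint-name contigs belong was not tested. In all of these the intervals of beta-only and paired cells overlap.

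By the ratio in both libraries, TRBV13-3 and TRBV17 stood highest and TRBV5 and TRBV2 lowest. TRBV13-3 (41130147 to 41130585) was in 3 WT beta-only cells against 9 paired and in 5 against 7 in p53 KO, and TRBV17 (41163092 to 41163556) in 3 against 8 and 5 against 7, ratios of 1.88 to 2.12. TRBV5 (41062359 to 41062803) was in 1 WT beta-only cell against 13 paired, and in p53 KO in 2 (2.17%, 0.264 to 7.63) against 28 (10.8%, 7.30 to 15.2). The 28 paired cells held 11 different CDR3s, and with each CDR3 counted once the p53 KO shares were 2.63% and 6.88%. TRBV2 (41047556 to 41047995) was in 0 of 49 WT beta-only cells, which by 3 counts of the total allows up to 6.12%, against 10 paired, and in 2 against 12 in p53 KO. With at most 5 beta-only cells per library behind each of these, the intervals overlap for each of the 4 genes in both libraries. TRBV31 lies apart from the other V genes, beyond the J segments, and is joined by inversion; it was in 2 WT beta-only cells against 1 paired cell and in 6 against 8 in p53 KO, and was added with its values known.

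**Figure D5:**
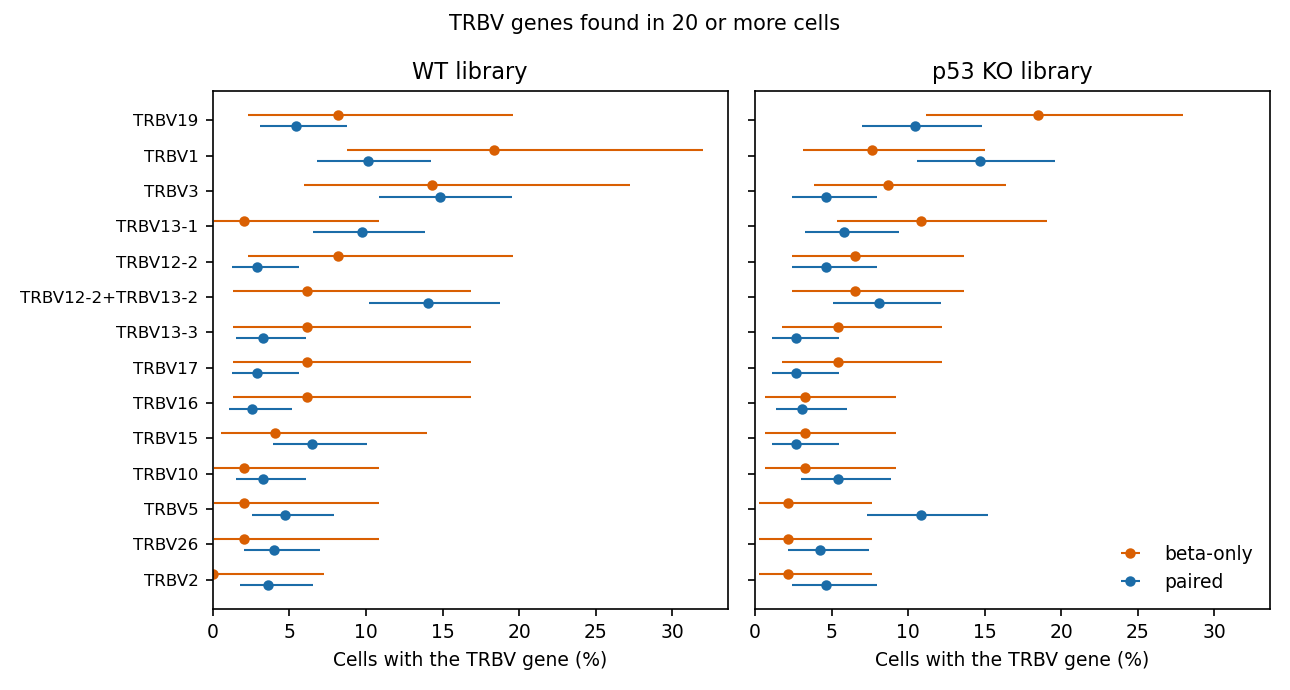
Share of beta-only cells (orange) and of paired cells (blue) with each TRBV gene found in 20 or more cells with a beta chain (percent, horizontal axis; genes on the vertical axis), in the WT and the p53 KO library; lines are exact 95% binomial intervals. The orange and blue lines overlap for each of the 14 genes in both libraries, and TRBV19 reaches 18.5% of p53 KO beta-only cells.

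J segments pick the exons that follow them: TRBJ1 genes lie before TRBC1, and TRBJ2 genes before TRBC2. All beta-only contigs kept this order, with TRBC1 on 16 of 16 WT and 19 of 19 p53 KO TRBJ1 contigs and TRBC2 on 33 of 33 and 73 of 73 TRBJ2 contigs. TRBJ2 genes were in 67.3% of WT beta-only cells (52.5 to 80.1) against 74.4% of paired cells (68.8 to 79.4), and in 79.3% (69.6 to 87.1) against 75.7% (70.0 to 80.8) in p53 KO. TRBC1 was therefore in 32.7% against 25.3% in WT and in 20.7% against 23.9% in p53 KO. The differences have opposite signs in the 2 libraries, and all these intervals overlap. Without the leading WT chain, which joins TRBJ1-1, the WT shares of TRBJ2 were 73.3% and 75.2%.

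Of single J genes, TRBJ2-1 (41542754 to 41542803) led in p53 KO and over both libraries, and TRBJ2-7 led in WT. TRBJ2-1 was in 6 WT beta-only cells (12.2%) against 27 paired (9.75%), and in 27 in p53 KO (29.3%, 20.3 to 39.8) against 54 (20.8%, 16.1 to 26.3). The leading TRBV19 clone held 14 of the 27, and without it the p53 KO shares were 16.7% and 15.3%. TRBJ2-7 (41543810 to 41543856) was in 9 against 44 cells in WT and 18 against 47 in p53 KO, where the 18 had 18 different CDR3s. TRBJ2-5 (41543453 to 41543501) was in 6 against 36 and in 9 against 29. The least used was TRBJ1-3 (41534323 to 41534372), in 1 beta-only cell of each library against 8 and 9 paired cells. For each of the 12 TRBJ genes the intervals of beta-only and paired cells overlap in both libraries.

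A D segment is short and often trimmed, and the deposited contigs named one in a minority of cells. It was named in 17 of 49 WT beta-only cells (34.7%, 21.7 to 49.6) against 77 of 277 paired cells (27.8%, 22.6 to 33.5), and in 15 of 92 in p53 KO (16.3%, 9.42 to 25.5) against 70 of 259 (27.0%, 21.7 to 32.9). TRBD1 (41533201 to 41533212) made up 14 and 9 of the beta-only cells, and TRBD2 (41542163 to 41542176) 3 and 6. TRBD2 lies behind the TRBJ1 genes, and 0 beta-only cells joined it to a TRBJ1 gene. The 28 paired cells of the p53 KO TRBV1-TRBJ2-2 clone had TRBD1, and the leading WT chain also has TRBD1. Without that WT chain the WT shares of a named D gene were 28.9% and 27.0%. With each CDR3 counted once the p53 KO shares were 18.4% (14 of 76, 10.5 to 29.0) and 23.1% (37 of 160, 16.8 to 30.4).

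The beta CDR3 was of ordinary length in beta-only cells. It averaged 13.8 ± 1.58 amino acids (SD over 49 cells) against 13.98 ± 1.62 (277 cells) in WT, and 14.1 ± 1.22 (92 cells) against 14.4 ± 1.56 (259 cells) in p53 KO. A CDR3 of 14 or more residues was in 55.1% of WT beta-only cells (40.2 to 69.3) against 62.5% (56.5 to 68.2), and in 78.3% in p53 KO (68.4 to 86.2) against 74.1% (68.3 to 79.4). The bases between the ends shared with other CDR3s of the same V and J genes had medians of 8 in both kinds of WT chain, and of 10 in beta-only against 9 in paired chains in p53 KO. These counts come from other CDR3s in the same files and not from the germline genes.

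The beta-only cells with most beta UMIs mark the upper end of beta depth among cells with no alpha contig reported. In WT this was a TRBV12-2+TRBV13-2 and TRBJ2-7 chain with 18 UMIs and 74738 reads, found in no other cell. In p53 KO it was the TRBV1-TRBJ2-7 chain with 25 UMIs and 63244 reads, which recurred in 1 paired cell with 4 beta UMIs and 2 alpha UMIs. A TRBV16-TRBJ1-2 chain with 24 UMIs and 69010 reads came next in p53 KO, also in 1 cell. Paired cells of the libraries had median alpha depths of 5 and 4 UMIs.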

How the data were processed

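Per the file headers, the authors deposited filtered contigs with V, D, J and C genes, CDR3, clonotype, barcode, and reads and UMIs as whole-number counts, not normalized. Cell Ranger 6.1.1 and mm10 come from the submitters' processing notes; of the receptor reference nothing is stated in the labels. The 733 WT and 709 p53 KO contigs (14957044 and 19853340 reads, 4280 and 4138 UMIs) were all productive, in called cells. Samples were grouped by the genotype in their titles.

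A cell was described by its beta contig of most UMIs, then most reads. Cells shared a clone if their beta CDR3 nucleotides were identical. Named were the 5 TRBV genes with most beta-only cells; of genes in 20 or more cells, the 2 highest and the 2 lowest by ratio of beta-only to paired share, if past 1.5 in both libraries; all TRBD and TRBC genes; the 3 leading TRBJ genes and the lowest; chains in 3 or more beta-only cells; and the cell with most UMIs per library. Members and lists were chosen with earlier results of these data known. Of 38 TRB gene names, 37 matched RefSeq (not TRBV12-2+TRBV13-2).

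No test was made, as each genotype had 1 library. No doublet caller was run; cells with more than 1 TRB contig were left out as an alternative. The scripts were tested on simulated data. Values were computed in Python 3.11.15 with scipy 1.17.1 and pandas 2.3.3, and plotted with matplotlib 3.10.9.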

Additional observations from a re-analysis of the deposited data

Results flagged for a closer look

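For 8 of the measures compared, the difference between beta-only and paired cells had opposite signs in the 2 libraries. None of these differences between libraries was tested, as there was 1 library per genotype, and their values are given without an explanation. The median beta UMI count was 1 higher in beta-only cells in WT and the difference was -1 in p53 KO, where it was 0 without chains of 10 or more cells. The share of cells whose beta CDR3 was in 2 or more cells differed by 2.17 percentage points in WT and by -14.9 in p53 KO. For TRBJ2 genes the differences were -7.02 and 3.67 points, for a named D gene 6.90 and -10.7, and for TRBC1 7.38 and -3.29. Without the leading WT chain the 3 WT values were -1.85, 1.88 and 1.85 points. For TRBV1 they were 8.26 and -7.06 points, for TRBV13-1 -7.71 and 5.08, and for TRBV3 -0.516 and 4.06. The other measures compared had the same sign in both libraries. They were the share with 3 or more beta UMIs, CDR3 length, TRBV12-2, TRBV13-3, TRBV17, TRBV19, TRBV2 and TRBV5. Opposite signs were thus common among the measures and carry little weight by themselves. TRBJ2 and TRBC1 also count nearly the same thing, as TRBJ1 genes go with TRBC1.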

How the results depend on the processing

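Alternatives were a minimum of 3 beta UMIs, all TRB contigs of a cell, leaving out cells with more than 1 TRB contig, other definitions of the same chain, each CDR3 counted once, and leaving out chains of 10 or more cells. Chosen after seeing the data were a minimum of 2 UMIs, leaving out the leading beta-only chain, and, for TRBV genes, counting each CDR3 once and leaving out chains of 10 or more cells. Of 122 alternative values of the main measures, 106 stayed within counting error of the value reported without a turn of sign. Among these, the p53 KO difference in median beta UMIs without chains of 10 or more cells was 0. Some of the 106 could not move. The largest WT chains had 7 cells, so leaving out chains of 10 or more cells changed no WT value. Every beta-only cell had 1 TRB contig, so the choice of contig could not change its values. The count of 106 therefore overstates how far the results were tried. With each CDR3 counted once, the p53 KO share without an alpha chain was 32.2%, that of betas also seen with an alpha 25%, and the differences between beta-only and paired cells were 10.1 points for TRBJ2, -9.44 for TRBC1 and 0.101 residues for CDR3 length, the last with its sign turned. Without chains of 10 or more cells the p53 KO values were 23.7% for betas also seen with an alpha, -15.1 points for betas in 2 or more cells, 6.03 for TRBJ2, -3.58 for a named D gene, -5.54 for TRBC1 and 0.0987 residues, again with its sign turned. Without the leading chain they were 25.6% and -22.6 points, the WT differences for TRBJ2, a named D gene and TRBC1 were -1.85, 1.88 and 1.85 points, and the WT difference for betas in 2 or more cells turned to -1.94 points. That WT difference was 8.26 points with 3 or more UMIs, and the WT difference for 3 or more UMIs was 7.33 points among cells of 2 or more. Signs also turned for TRBV3 in WT (3.47 points with each CDR3 counted once), and in p53 KO for TRBV1 (1.64, and 1.65 without large chains) and TRBV19 (-1.61 and -0.979); the p53 KO difference for TRBV5 was -4.24 with each CDR3 counted once. No paired analysis was possible because each group has 1 library and no test was made. The 49 and 92 beta-only cells limit the precision: by 3 counts, an unseen gene could still be in 6.12% and 3.26% of them.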
